A study of Mus musculus with 6 samples.

Results

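The matrix proteases and inhibitors described here are 9 mouse genes: the matrix metalloproteinases Mmp2, Mmp3, Mmp13 and Mmp14, their tissue inhibitors Timp1, Timp2 and Timp3, and the plasminogen activators Plau and Plat. They were taken as every non-control array probe whose accession maps to one of these symbols, which gave 9 of the 21479 genes and unnamed transcripts tested, on 12 of 56605 probes. Timp2, Timp3 and Plau had 2 probes each and the other genes 1. Levels were measured in TM4 cells, an established mouse line of testicular somatic cells much used as a model of the Sertoli cell, the nurse cell of the seminiferous tubule. The cells had 24 h with 10 µM 4-nitrophenol (PNP), a pollutant present in diesel exhaust that is also a breakdown product of some organophosphate insecticides, or 24 h untreated (0 µM). RNA of 3 samples per group was hybridised to 1 single-colour array each. The labels name 1 line. They leave unsaid if the 3 samples of a group were grown separately, and p-values here cover the spread among these samples only, some or all of which may be technical.

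Matrix metalloproteinases are zinc enzymes that are made as inactive proenzymes and cut collagens, laminins and proteoglycans once their propeptide is removed. Tissue inhibitors of metalloproteinases bind the active site, and the plasminogen activators turn plasminogen into plasmin, which cuts matrix directly and helps to activate some of the proenzymes. In the testis, Sertoli cells secrete plasminogen activators and metalloproteinases, which are linked to the remodelling of the junctions that germ cells pass on their way to the lumen.

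A level is log2 of the array's processed signal minus the 75th percentile of that array, so 0 stands for the 75th percentile, and levels of different probes are not compared with each other. The arrays lay on 3 slides at 2 positions per slide. Slide 1 held untreated replicates 1 and 2, slide 2 held PNP replicate 1 and untreated replicate 3, and slide 3 held PNP replicates 2 and 3. Slides 1 and 3 thus held 1 group each, and between them treatment and slide cannot be told apart. Position 1 held PNP replicate 2 and untreated replicates 1 and 3, and position 2 held PNP replicates 1 and 3 and untreated replicate 2. The 75th percentile itself was 435, 456 and 384 signal units on the PNP arrays and 306, 273 and 461 on the untreated arrays, so untreated replicates 1 and 2 were the dimmest. Of the 56605 probes, 51.6% to 57.9% on the PNP arrays and 47.8% to 54.9% on the untreated arrays were well above background. All 12 probes of the 9 genes were well above background on all 6 arrays, so none entered through 1 group alone. Of 20 Sertoli cell markers, 13 were measurable, Sox9, Wt1 and Gata4 among them, while Amh, Cldn11, Fshr, Aard and Shbg were well above background on none of the 6 arrays. The Sertoli markers summed to between 13.6 and 16.3 times the 75th percentile in PNP samples and between 14.8 and 18.1 times in untreated samples. Of the Leydig cell markers Nr5a1 alone was measurable and 7 were well above background on none of the arrays. By contrast 7 of 8 peritubular myoid markers were measurable, as were 3 of 11 germ cell, 3 of 8 macrophage and 1 of 6 endothelial markers.

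None of the 9 genes differed between PNP and untreated cells by the test across all genes (limma, adjusted p from 0.572 for Mmp13 to 0.862 for Mmp2). Mmp13 and Plat were higher in every PNP sample than in every untreated sample, by 0.36 ± 0.20 and 0.33 ± 0.21 on the log2 scale (SE, n = 3 per group). The other 7 genes had log2 fold changes between -0.47 and -0.13, with overlapping groups. By array position, Timp3, Mmp3 and Plau had all 3 position 2 arrays below all 3 position 1 arrays, with both treatments at each position. Over everything tested, treatment groups did not overlap for 15.4% and positions for 22.4%. Timp3 was lower at position 2 on each of the 3 slides, with log2 differences between -0.78 and -0.61. In bulk RNA, less transcript per cell and fewer cells that carry it cannot be told apart.

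**Figure D1:**
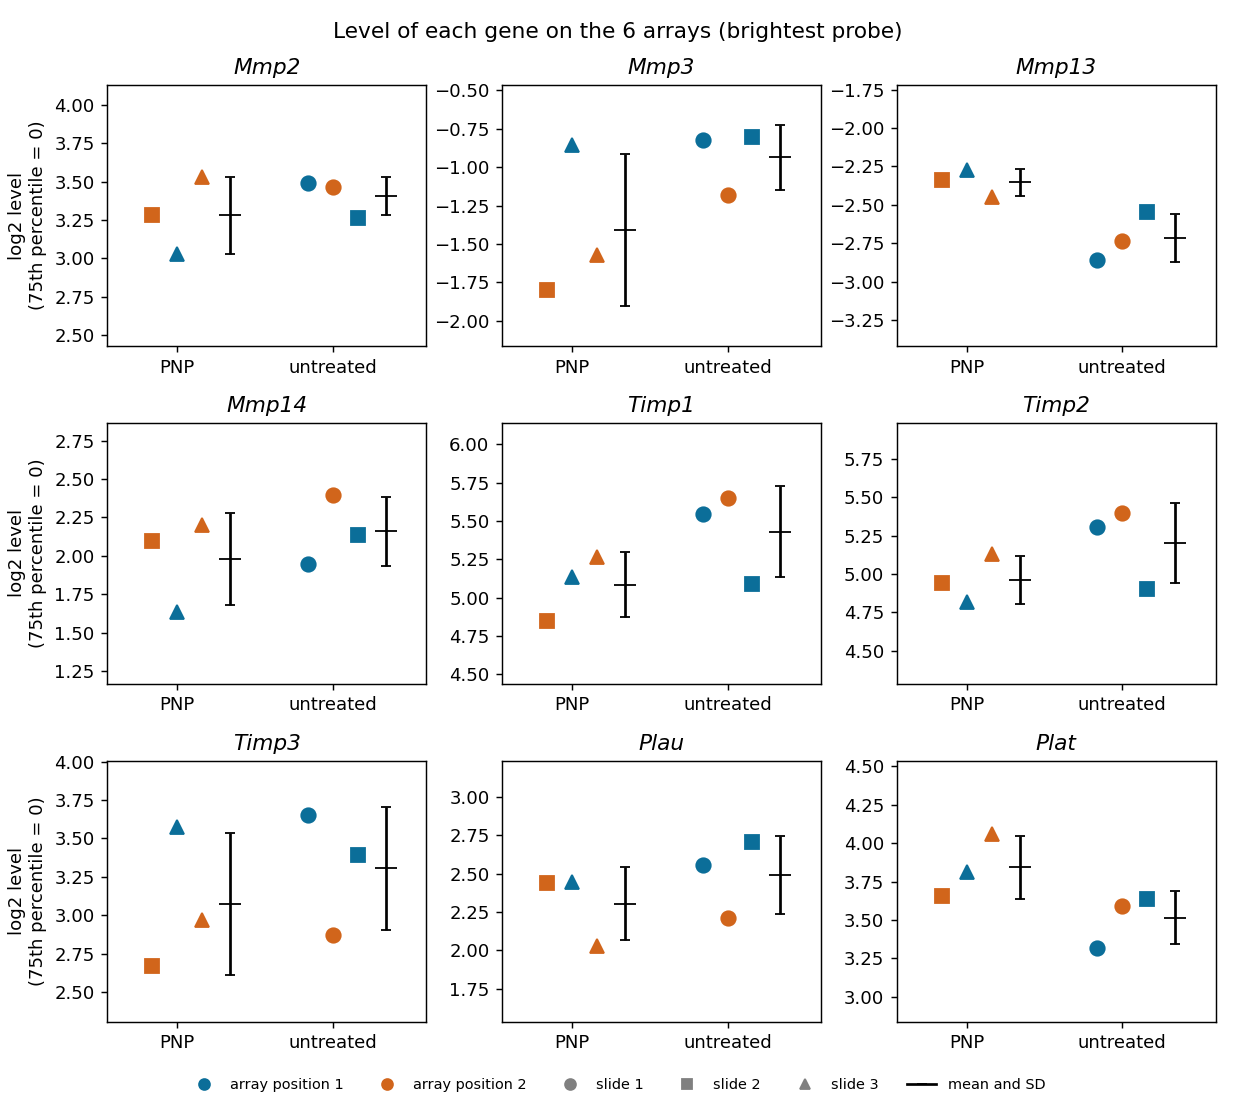
Level of each of the 9 genes (vertical axis, log2 signal relative to the array's 75th percentile) on the 3 PNP arrays, left, and the 3 untreated arrays, right, by their brightest probe. Colour marks array position, shape marks the slide, and the bar is the mean with its SD. Only Mmp13 and Plat have separate groups, while Mmp3, Timp3 and Plau separate by colour.

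Promoter sequences are shown for 3 of the 9 genes: Mmp3 and Timp3, which had the widest spread over the 6 arrays and moved with array position, and Mmp13, which lies on the same chromosome as Mmp3 and differed from it in sign. Each line gives the 150 bases before the RefSeq start on the plus strand of GRCm38.p6, at chr9:7445672-7445821 for Mmp3, chr9:7272364-7272513 for Mmp13 and chr10:86300262-86300411 for Timp3. Capitals mark matches to the AP-1 motif TGANTCA and to the Ets motif AGGAAG. All motifs were searched on both strands.
Mmp3: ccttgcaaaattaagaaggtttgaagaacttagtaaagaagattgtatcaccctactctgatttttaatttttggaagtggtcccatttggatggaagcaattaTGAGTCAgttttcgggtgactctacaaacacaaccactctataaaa
Mmp13: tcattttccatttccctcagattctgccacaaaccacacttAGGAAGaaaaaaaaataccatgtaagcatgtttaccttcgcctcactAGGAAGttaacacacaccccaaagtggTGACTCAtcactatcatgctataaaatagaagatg
Timp3: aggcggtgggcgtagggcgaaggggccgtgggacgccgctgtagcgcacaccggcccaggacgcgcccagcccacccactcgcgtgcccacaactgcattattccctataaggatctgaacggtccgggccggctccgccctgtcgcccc
The AP-1 motif, bound by dimers of Fos and Jun proteins, stood 46 to 40 bases before the RefSeq start of Mmp3 and 35 to 29 bases before that of Mmp13. It was in neither Timp3 nor the windows of Mmp14, Timp1 and Timp2. Promoters were matched for 6 of the 9 genes, with none for Mmp2, Plau and Plat. Over 250 bases before the start, 6.75% of 32851 promoter windows held the AP-1 motif and 29.5% the Ets motif. Mmp3 and Mmp13 also held TATAAA, found in 12.4% of windows, at 7 to 2 and 16 to 11 bases before their RefSeq starts. Both lacked GGGCGG, the GC box to which Sp1 binds, found in 32.7%. Mmp14, Timp1, Timp2 and Timp3 had the reverse: at least 1 GC box each and no TATAAA. In the 250 bases the Ets motif was found in Mmp3, Mmp13, Mmp14, Timp1 and Timp3 and not in Timp2, with none overlapping an AP-1 match. These matches describe letters and no binding was measured.

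The gelatinase Mmp2 cuts denatured collagen and basement membrane collagen. Its levels were 3.28, 3.03 and 3.53 on the PNP arrays and 3.49, 3.46 and 3.26 on the untreated arrays. PNP samples held both the highest and the lowest of the 6 values. Mmp2 differed by -0.13 ± 0.21 on the log2 scale (SE, n = 3 per group), with a 95% interval from -0.61 to 0.36 and an adjusted p of 0.862 in limma.

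Mmp14 is a membrane-anchored metalloproteinase that activates pro-Mmp2 at the cell surface. It stood at 2.10, 1.64 and 2.20 in PNP cells and at 1.95, 2.40 and 2.13 in untreated cells. The groups overlapped, and PNP replicate 2, at position 1, was the lowest. Its log2 fold change was -0.18 ± 0.23 (SE, n = 3 per group), 95% interval -0.72 to 0.35, with an adjusted p of 0.813 in limma. At position 2 Mmp14 was 0.44 ± 0.18 higher than at position 1 (limma with group and position, adjusted p = 0.225). The difference was 0.45 on slide 1 and 0.56 on slide 3, where both arrays had the same treatment. On slide 2, with PNP at position 2 and untreated at position 1, it was -0.04.

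The stromelysin Mmp3 has a broad range of matrix substrates and activates other pro-metalloproteinases. Levels on the PNP arrays were -1.80, -0.86 and -1.57, against -0.82, -1.18 and -0.81 on the untreated arrays. PNP replicates 1 and 3 were the lowest of all 6, and both lay at position 2, whereas PNP replicate 2, at position 1, stood with the untreated samples. Mmp3 had the most negative log2 fold change of the 9 genes, -0.47 ± 0.28 (SE, n = 3 per group; 95% interval -1.11 to 0.16), and did not pass (limma, adjusted p = 0.601). Once array position was a block it was -0.27 ± 0.20, and without PNP replicate 2 it was -0.75, with an adjusted p above 0.05 in both.

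Mmp13 is a collagenase that cuts fibrillar collagen and is the main interstitial collagenase of rodents. Its levels were -2.34, -2.27 and -2.45 in PNP cells and -2.86, -2.74 and -2.55 in untreated cells. All PNP samples stood above all untreated samples, and the nearest samples of the groups, PNP replicate 3 and untreated replicate 3, were closer to each other than the untreated samples were among themselves. Its log2 fold change was 0.36 ± 0.20 (SE, n = 3 per group; 95% interval -0.08 to 0.81), with an adjusted p of 0.572 in limma. In processed signal, before scaling, Mmp13 read 85.9, 94.4 and 70.3 on the PNP arrays and 42.1, 40.9 and 78.7 on the untreated arrays. On that scale untreated replicate 3 was as bright as the PNP samples, and the dim values were those of the arrays with the lowest 75th percentile. The Mmp13 probe is a dim one, and with normexp background correction its levels were -1.71, -1.58 and -1.71 in PNP cells and -1.76, -1.77 and -1.75 in untreated cells, a log2 fold change of 0.10. That setting adds an offset of 50 to every corrected signal, which by itself draws the log2 levels of dim probes together. The part of this offset in the smaller fold change was not tested. Nor was the part of overall array brightness in the difference.

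Among the inhibitors, Timp1 is an inducible, secreted inhibitor of many metalloproteinases. It stood at 4.85, 5.14 and 5.26 in PNP cells and at 5.55, 5.65 and 5.09 in untreated cells. Untreated replicates 1 and 2 were the highest, and untreated replicate 3 lay among the PNP samples. The log2 fold change of Timp1 was -0.35 ± 0.23 (SE, n = 3 per group; 95% interval -0.88 to 0.18), with an adjusted p of 0.643 in limma. The processed signals of Timp1 were 12570, 16031 and 14764 on the PNP arrays, against 14305, 13698 and 15715 on the untreated arrays. All untreated signals lay within the PNP range, and the higher scaled levels of untreated replicates 1 and 2 were on the arrays with the lowest 75th percentile. The part of array brightness in the Timp1 difference was not tested.

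Timp2 inhibits Mmp2 and also links pro-Mmp2 to Mmp14 for its activation. Its brightest probe gave 4.94, 4.82 and 5.13 in PNP cells and 5.31, 5.40 and 4.90 in untreated cells. As with Timp1, untreated replicates 1 and 2 were the highest and untreated replicate 3 lay within the PNP range. The log2 fold change was -0.24 ± 0.22 (SE, n = 3 per group; 95% interval -0.74 to 0.26; limma, adjusted p = 0.728). A second Timp2 probe stood at 3.77, 3.61 and 3.83 in PNP cells and at 4.12, 4.16 and 3.90 in untreated cells. There all PNP samples were below all untreated ones, at -0.33 ± 0.19 on the log2 scale (SE, n = 3 per group; limma over probes, adjusted p = 0.617). The processed signals of the second probe overlapped, at 5958, 5586 and 5446 in PNP cells and 5323, 4887 and 6905 in untreated cells.

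Timp3 is the inhibitor that stays bound to the matrix and also acts on ADAM proteases. It stood at 2.67, 3.58 and 2.97 in PNP cells and at 3.65, 2.87 and 3.39 in untreated cells. The 3 arrays at position 1, which are PNP replicate 2 and untreated replicates 1 and 3, were all higher than the 3 arrays at position 2. The log2 fold change between treatments was -0.23 ± 0.30 (SE, n = 3 per group; 95% interval -0.92 to 0.46; limma, adjusted p = 0.813), and once array position was a block it was 0.002 ± 0.19. The second Timp3 probe read 1.49, 2.12 and 1.53 in PNP cells and 2.31, 1.64 and 2.33 in untreated cells. It separated by position in the same way, and its log2 fold change between treatments was -0.38 ± 0.28 (SE, n = 3 per group; limma over probes, adjusted p = 0.673). Once array position was a block, this second probe stayed below 0, at -0.17 ± 0.17.

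Plau, the urokinase-type plasminogen activator, acts mainly at the cell surface, bound to its receptor Plaur. It stood at 2.44, 2.45 and 2.03 in PNP cells and at 2.55, 2.21 and 2.71 in untreated cells. The groups overlapped, and the lowest sample of each group was at position 2. PNP replicates 1 and 2, at positions 2 and 1, were nearly level, so the separation by position is narrow for this probe. Its log2 fold change was -0.19 ± 0.23 (SE, n = 3 per group; 95% interval -0.71 to 0.34; limma, adjusted p = 0.801). A second, dimmer Plau probe gave -1.37, -1.01 and -1.24 in PNP cells and -1.08, -1.33 and -0.87 in untreated cells, a log2 fold change of -0.11 ± 0.21 (limma over probes, adjusted p = 0.877).

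Plat, the tissue-type plasminogen activator, is secreted and works best when bound to fibrin. It stood at 3.65, 3.81 and 4.06 in PNP cells and at 3.32, 3.59 and 3.64 in untreated cells. PNP samples were all higher, but PNP replicate 1 and untreated replicate 3, which shared slide 2, were nearly level. The log2 fold change was 0.33 ± 0.21 (SE, n = 3 per group; 95% interval -0.15 to 0.81), and the adjusted p was 0.630 in limma. In processed signal Plat read 5480, 6399 and 6414 on the PNP arrays and 3046, 3286 and 5736 on the untreated arrays. Here too untreated replicate 3 stood with the PNP samples and the dim values were those of slide 1. With slide and array position both as fixed blocks, a fit in which treatment rests on slide 2 and which was added after seeing the data, the log2 fold change of Plat was -0.25, the opposite sign.

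**Figure D2:**
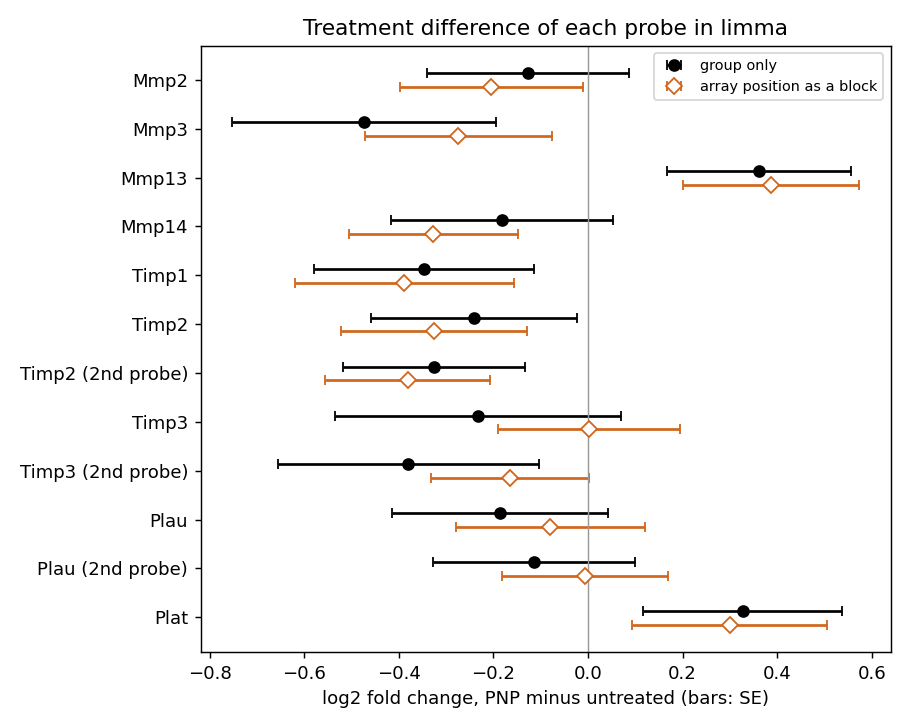
Log2 fold change, PNP minus untreated (horizontal axis; bars are the SE), of the 12 probes, with group only (filled circles) and with array position as a block (open diamonds). Mmp13 and Plat lie above 0 in both fits, and the brightest Timp3 probe moves to 0.002 with the block.

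Over the whole table, limma called 0 of 21479 genes and unnamed transcripts for treatment at the 0.05 threshold (0%), with 0.107 as the lowest adjusted value, and over single probes the share was also 0%. Without adjustment, 0 of the 9 genes had a p under 0.05, where 9.94% of everything tested did. Groups did not overlap for 2 of the 9 genes, both higher with PNP, against 15.4% of everything tested (7.6% higher and 7.83% lower). The median log2 fold change of the 9 genes was -0.19, against -0.04 over everything tested and -0.09 over the 13538 named genes. Of the 9, 7 lay below 0, as did 55.2% of everything tested and 62.2% of named genes. With 9 genes, none of these counts lies far from the share over everything tested. None of the 9 genes had an absolute log2 fold change of 1, the 2-fold mark, which 3.17% of everything tested reached, and among the brightest probes only the 95% interval of Mmp3 reached beyond it. A list of 9 genes chosen with earlier results of these arrays in view carries no p of its own.

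Array position, read from the end of each scanner file's name, was tested in the same model with treatment. Of everything tested, 2.64% had an adjusted p under 0.05 between positions, and 0 of the 9 genes did. At an unadjusted p under 0.05 these were Mmp3, Mmp14 and Timp3, so 3 of 9, against 20.6% of everything tested. Mmp3 and Timp3 were lower at position 2, as 9.42% of everything tested was at that mark, and Mmp14 higher, as 11.1% was. Positions did not overlap for Mmp3, Timp3 and Plau, 3 of 9 again, against 22.4%. Each gene with 2 probes behaved alike on both here, with both probes of Timp3 and of Plau separated and neither of Timp2.

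Timp3 was lower at position 2 than at position 1, with a difference of -0.70 ± 0.19 (SE; 95% interval -1.16 to -0.25), with 3.54 ± 0.14 at position 1 and 2.84 ± 0.15 at position 2 (SD, n = 3 each), and the adjusted p in limma was 0.098. The position 2 minus position 1 difference of Timp3 was -0.78 on slide 1 with both arrays untreated, -0.72 on slide 2 with PNP at position 2, and -0.61 on slide 3 with both arrays PNP. On slides 1 and 3 both arrays had the same treatment, and the difference there was of like size to that on slide 2. The second Timp3 probe gave -0.67, -0.84 and -0.59 on the same slides (limma, adjusted p = 0.082). The adjusted p of the brightest probe was under 0.05 in 6 of the other ways of processing, with normexp (0.030), quantile normalization (0.047), a robust variance trend (0.029), array weights (0.005), and slide as a fixed (0.036) or random block (0.022). In those settings 5.52%, 3.61%, 6.48%, 23.3%, 13.1% and 13.9% of everything tested, in the same order, passed between positions.

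Mmp3 also was lower at position 2, with a difference of -0.60 ± 0.20 (SE; 95% interval -1.06 to -0.14; limma, adjusted p = 0.145). The difference was -0.36 on slide 1, -0.996 on slide 2 and -0.72 on slide 3. All 3 slides had the same sign, but they spread more widely than for Timp3. Plau had a position difference of -0.32 ± 0.20 (limma, adjusted p = 0.425), at -0.34, -0.27 and -0.42 on slides 1, 2 and 3. For its second probe the differences were -0.25, -0.50 and -0.24. The position difference of Mmp2, Mmp13, Timp1, Timp2 and Plat was between -0.08 and 0.25, with adjusted p from 0.520 to 0.866 in limma. Of these only Timp2 and Plat had 1 sign on all slides, and the nearest to 0 were 0.03 and 0.02.

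**Figure D3:**
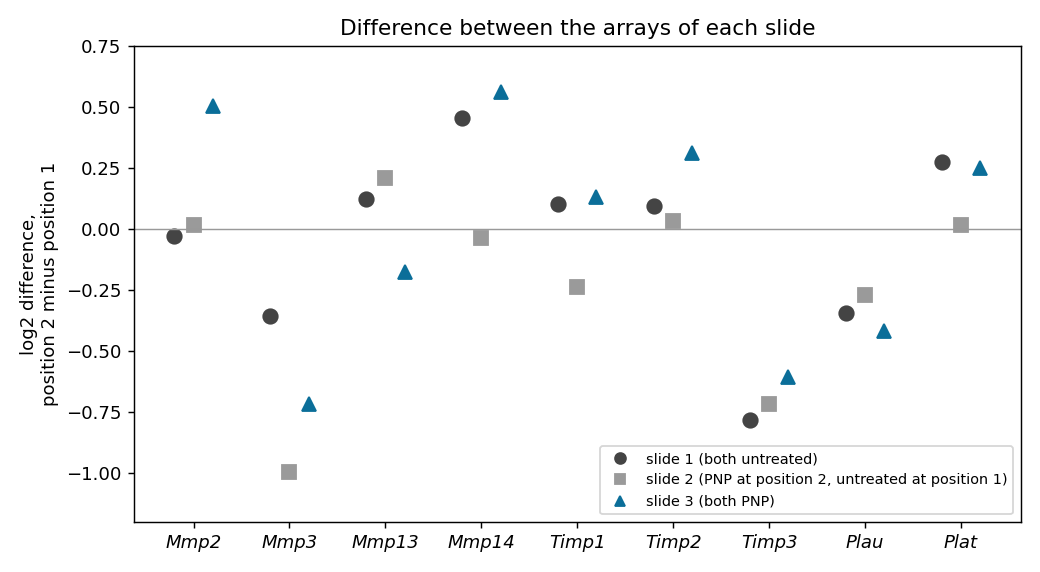
Difference in level between the arrays of each slide, position 2 minus position 1 (vertical axis, log2), for the 9 genes. Circles are slide 1 with both arrays untreated, squares slide 2 with PNP at position 2, and triangles slide 3 with both arrays PNP. Mmp3, Timp3 and Plau lie below 0 on all slides, Timp3 between -0.78 and -0.61.

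Within 1 position, the treatment difference of Timp3 was 0.05 at position 1 and -0.05 at position 2, with -0.20 and -0.13 for its second probe, and that of Plau was -0.18 and 0.02. Mmp13 kept its sign, at 0.43 and 0.34, and so did Plat, at 0.33 and 0.27. Mmp3 gave -0.04 at position 1 and -0.51 at position 2. The remaining genes were lower with PNP at both positions: Mmp2 had -0.35 and -0.06, Mmp14 -0.40 and -0.25, Timp1 -0.18 and -0.59, and Timp2 -0.29 and -0.36. The difference between positions was tested as an interaction and none of the 9 genes passed (limma, adjusted p of 1.00 for each, smallest unadjusted p 0.334 for Mmp3). Over everything tested 0 passed (0%) and 1.59% had an unadjusted p under 0.05.

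To see which genes followed the same pattern, named genes were ranked by the Pearson correlation of their level with that of Timp3 and of Mmp3, the 2 genes of widest spread, over the 6 arrays and 12769 named genes bright on all of them. Nearest to Timp3 were Sfpq at 0.999, Fancf at 0.998 and Mpp3 at 0.998. For Mmp3 they were Kprp at 0.991, Sprr1a at 0.986 and Erc1 at 0.984. The 6 points share slides, positions and array brightness, and with so many candidates high values arise readily, so these are descriptions only.

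In the rest of the matrix protease system, 108 of the genes listed were tested and 0 passed the adjusted threshold. At an unadjusted p under 0.05, 2 were higher and 6 lower with PNP, and 1 of the 2 higher ones, Mmp16, entered the test only through its bright PNP arrays. At that mark 6.86% of everything tested was higher and 3.07% lower. Among the other matrix metalloproteinases 10 of 19 were measurable, with a median log2 fold change of -0.09. Mmp1a, Mmp7, Mmp15, Mmp17, Mmp20, Mmp21 and Mmp27 were well above background on none of the arrays. Mmp16, a membrane-type metalloproteinase, stood at -3.72, -3.40 and -3.72 in PNP cells and at -4.54, -4.96 and -3.98 in untreated cells, where no array was well above background. Its means were -3.61 in PNP cells and -4.49 in untreated cells. They are given as a description only, since the probe was tested because its PNP arrays were bright, and with normexp its log2 fold change was 0.027. The gelatinase Mmp9 was at -2.09, -1.80 and -1.47 in PNP cells and -1.30, -1.62 and -1.30 in untreated cells, a log2 fold change of -0.38 ± 0.23 (limma, adjusted p = 0.616). Mmp23, an unusual metalloproteinase with a membrane anchor at its amino end, had -0.40 ± 0.24 (limma, adjusted p = 0.608).

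Of 15 other inhibitors 9 were measurable, with a median log2 fold change of -0.18, and 0 had an unadjusted p under 0.05. Serpine2, an inhibitor of thrombin and plasminogen activators, averaged -3.36 ± 0.49 in PNP cells and -2.70 ± 0.42 in untreated cells (SD, n = 3 each), a log2 fold change of -0.66 ± 0.31 (SE; limma, adjusted p = 0.532), or -0.41 with normexp. Serpinb2, which inhibits urokinase, stood at -1.74, -0.74 and -2.03 in PNP cells and at -0.76, -1.62 and -0.60 in untreated cells. Like Timp3 and Mmp3 it was lower on every position 2 array, with a position 2 minus position 1 difference of -1.04 ± 0.19 (limma, adjusted p = 0.040), while its log2 fold change between treatments was -0.51 ± 0.39 (limma, adjusted p = 0.682). Spint1, an inhibitor of hepatocyte growth factor activator, had 0.24 ± 0.22 (limma, adjusted p = 0.726).

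Of 10 other genes listed with the plasminogen system 9 were measurable. Hgfac, Mst1 and Masp1 on this list are not part of that system in a strict sense. The median log2 fold change of the 9 was 0.00 with group only and -0.18 with array position as a block. Hgfac and Lrp1 had an unadjusted p under 0.05 in limma, both lower with PNP. Hgfac, the protease that activates hepatocyte growth factor, stood at -3.97, -3.97 and -3.97 in PNP cells and at -2.91, -3.09 and -2.74 in untreated cells. The groups were well apart, by -1.06 ± 0.20 on the log2 scale (SE, n = 3 per group), and Hgfac did not pass (limma, adjusted p = 0.205). The Hgfac probe is a dim one, though well above background on every array, and with normexp its log2 fold change was -0.55. Lrp1, an endocytic receptor that clears protease and inhibitor complexes, was at 3.38, 3.73 and 3.53 in PNP cells and 4.34, 3.78 and 4.15 in untreated cells, a log2 fold change of -0.54 ± 0.23 (limma, adjusted p = 0.482). Plaur, the urokinase receptor, averaged 1.91 ± 0.14 in PNP cells and 2.27 ± 0.21 in untreated cells (SD, n = 3 each), with an adjusted p of 0.594 in limma.

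Of 25 ADAM and ADAMTS proteases, which shed membrane proteins or cut proteoglycans, 19 were measurable, with a median log2 fold change of -0.17, and 0 had an unadjusted p under 0.05. The 3 with the smallest p were Adamts14, a procollagen peptidase, at -0.31 ± 0.20, Adam8 at -0.34 ± 0.23 and Adamts9 at -0.63 ± 0.49 (SE; limma, adjusted p from 0.630 to 0.691). A second Adam8 probe had the opposite sign, 0.13, and Adamts9 had -0.38 with normexp. Among activators, cathepsins and processing proteases 16 of 20 were measurable, with a median of -0.19, and only Cd44 had an unadjusted p under 0.05. Cd44, a hyaluronan receptor that docks metalloproteinases, had -0.47 ± 0.20 (limma, adjusted p = 0.496), but its other probes gave 0.18 and 0.42. Loxl2, a collagen cross-linking enzyme, had -0.43 ± 0.27, and the lysosomal protease Ctsb had 0.47 ± 0.30 (limma, adjusted p of 0.622 and 0.620).

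The substrates of these proteases were measurable for 24 of 28 genes, with a median of -0.16, and 20 of the 24 lay below 0, against 62.2% of named genes. Col18a1, a basement membrane collagen, averaged 1.34 ± 0.11 in PNP cells and 1.86 ± 0.18 in untreated cells (SD, n = 3 each), a log2 fold change of -0.52 ± 0.20 (SE; limma, adjusted p = 0.453). It was the only substrate with an unadjusted p under 0.05. The basement membrane proteoglycan Hspg2 had -0.43 ± 0.21 and the microfibrillar collagen Col6a2 had -0.50 ± 0.27 (limma, adjusted p of 0.534 and 0.574).

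All 21 transcription factors known to act on protease promoters were measurable, with a median log2 fold change of -0.35 with group only and -0.14 with array position as a block. Of these, 4 had an adjusted p under 0.05 between positions, all lower at position 2, where 2.64% of everything tested passed. Fosb, a partner in AP-1 dimers, stood at -0.62, -0.74 and -0.82 in PNP cells and at -0.26, 0.22 and -0.39 in untreated cells, a log2 fold change of -0.58 ± 0.22 (limma, adjusted p = 0.453). Junb, also an AP-1 subunit, averaged 2.37 ± 0.25 in PNP cells and 2.91 ± 0.15 in untreated cells (SD, n = 3 each; limma, adjusted p = 0.465). The groups of both were separate, and Fosb, Junb and Sp1 were the 3 factors with an unadjusted p under 0.05. Sp1, which binds GC boxes, was at 0.28, 0.23 and 0.59 in PNP cells and -1.05, -0.70 and -0.53 in untreated cells, a log2 fold change of 1.13 ± 0.22 (limma, adjusted p = 0.242), while another Sp1 probe gave 0.05.

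**Figure D4:**
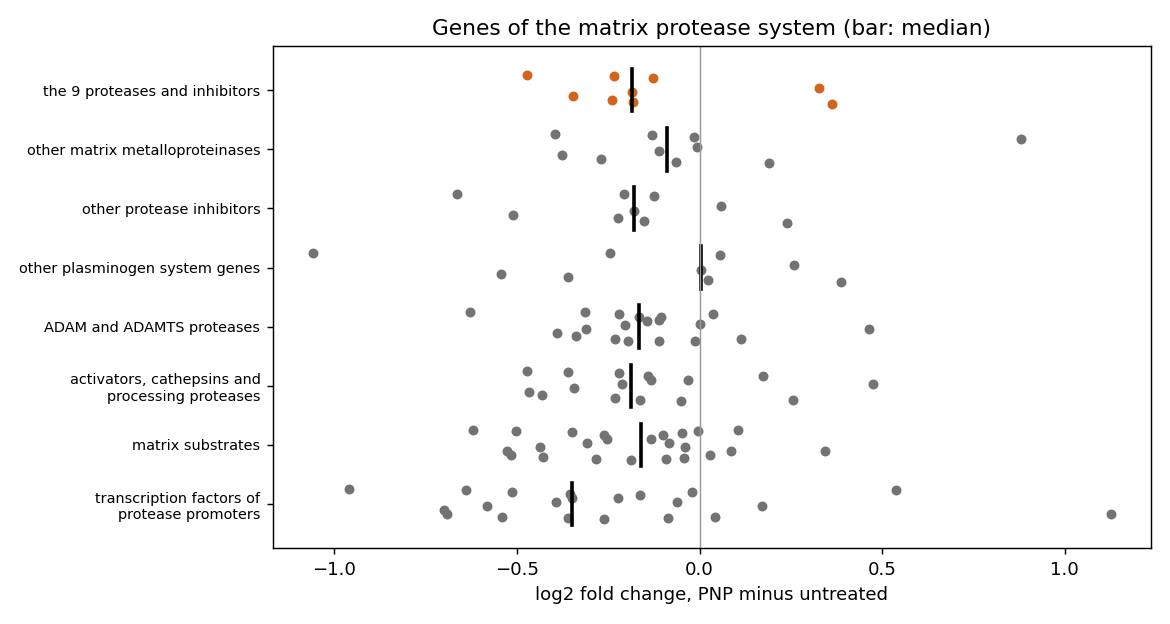
Log2 fold change, PNP minus untreated (horizontal axis), of each measured gene of the 9 proteases and inhibitors (top row) and of 7 lists of related genes, with the median of each row as a bar. Medians lie between -0.35 and 0.00, and each row has genes on both sides of 0.

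Across 25 other ways of processing, each of the 9 genes kept an adjusted p above 0.05 for treatment. Mmp3, Mmp13 and Timp1 kept their sign throughout, with log2 fold changes from -0.996 to -0.041 for Mmp3, from 0.10 to 0.49 for Mmp13 and from -0.59 to -0.18 for Timp1. The most negative Mmp3 value, with slide as a fixed block, is that of slide 2 alone, 1 PNP array at position 2 against 1 untreated array at position 1. The brightest Timp3 probe changed sign in 4 settings and its second probe in 0 of 22, Plau changed in 2, and Mmp2, Mmp14, Timp2 and Plat in 1 each. The settings that called any gene for treatment called 0.433% of everything tested (normexp and a position block), 0.0838% (robust trend and a position block), 6.36% (array weights), 2.5% and 0.363% (within positions 1 and 2) and 0.67% (slide and position blocks), and 0 of the 9 genes. Within each position 1 group was a single array, so the shares there follow the size of the fold change more than each gene's own spread. Mmp3 had an unadjusted p under 0.05 with normexp, where 8.12% of everything tested did, and without PNP replicate 2, where 9.27% did. With limma's array weights Mmp3, Mmp13, Timp1 and Plat, so 4 of 9, had an unadjusted p under 0.05, where 30.3% of everything tested did. That setting gave untreated replicate 1 a weight of 9.11 and the other arrays 0.466 to 0.798, so it leans on 1 untreated array.

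**Figure D5:**
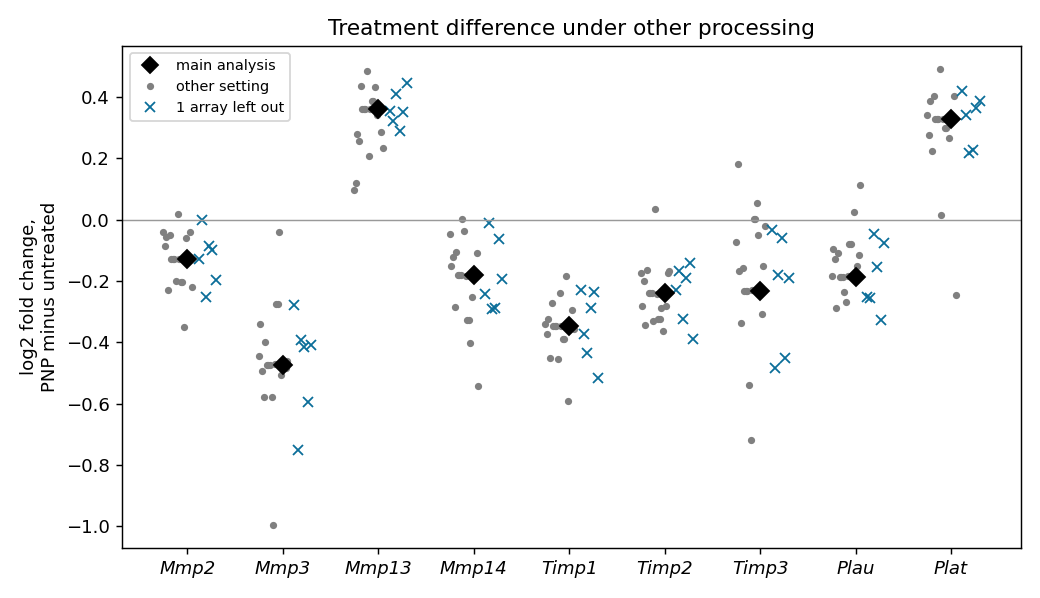
Log2 fold change, PNP minus untreated (vertical axis), of the 9 genes in the main analysis (diamonds), under other settings (dots) and with 1 array left out (crosses). Mmp13 stays above 0 throughout and Mmp3 and Timp1 below, while the points of the brightest Timp3 probe lie on both sides of 0.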

How the data were processed

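Total RNA of 6 TM4 samples was labelled with Cy3 and hybridised to 1 array each, per the labels. The authors deposited intensity values from Agilent Feature Extraction (11.5.1.1 per the file headers, 10.7 per the submitters' processing notes), background-subtracted and not scaled between arrays, and a log2 table of the same arrays, whose scale was read from its values and whose normalization is not given in the sources used here. Each array's 75th percentile of log2 processed signal was subtracted. A probe entered (28208 did) if all 3 arrays of a group, either one, had it well above background, and the brightest probe stood for its gene. Names came from a RefSeq table of GRCm38.p6, which also gave the promoters. Tests used limma 3.58.1 under R 4.3.3 (lmFit, eBayes, two-sided, Benjamini-Hochberg over 21479 units, threshold 0.05). The fit was also run on simulated arrays with independent noise. Those had no slide or position effect, so they do not show how the fit behaves with such effects. Array position was added to the model, and its interaction with treatment. Precision is limited by 6 arrays. The members and lists were chosen with earlier results of these data known. From each list, the 3 genes with the smallest p are named. Alternatives covered background correction, normalization, filters, variance models, blocks for slide, position and replicate number, the authors' log2 values, and leaving out each array. Normexp added an offset of 50 to every corrected signal, which narrows log2 differences of dim probes such as Mmp13, Mmp16, Hgfac, Serpine2 and Adamts9. Same-numbered replicates lay at opposite array positions, and their deviations correlated at -0.41, -0.55 and -0.41. Within those pairs position and pairing cannot be told apart. Other pairs at opposite positions were PNP replicate 1 with untreated replicate 3, at 0.14, and PNP replicate 3 with untreated replicate 1, at -0.10. Pairs at the same position lay between 0.14 and 0.50. These few values do not settle if same-numbered samples were paired.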

Additional observations from a re-analysis of the deposited data

How the results depend on the processing

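The planned analysis called 0 genes for treatment, and so did leaving out each array (0 to 0). Limma called 93 with normexp and a block for array position, 18 with that block and a robust trend, 1365 with array weights, 538 within position 1, 78 within position 2 (where the lone sample of a group is assumed to vary like the others) and 144 with slide and position as fixed blocks, which was added after seeing the data. None of these calls was 1 of the 9 proteases and inhibitors. Within position 1, PNP replicate 2 stood alone against untreated replicates 1 and 3, and the same assumption was made there. Each of the 9 genes had the same SE in that fit, 0.419. The calls within position 1 thus follow the size of the fold change and do not measure each gene's own spread. Within position 2 the SE of the 9 genes was nearly the same too, from 0.399 to 0.407. Of the related genes named, array weights took Hgfac, Lrp1, Col18a1 and Sp1 past the threshold (adjusted p from 0.019 to 0.047), and normexp with a position block took Sp1 past it too (0.047). The count of the 9 proteases and inhibitors at an unadjusted p under 0.05, which is 0, was 1 with normexp, 4 with array weights and 0 to 1 with 1 array left out, the 1 being Mmp3 without PNP replicate 2. Shares over everything tested were 9.94% in the planned analysis, 8.12% with normexp, 30.3% with array weights and 9.27% without PNP replicate 2. The median log2 fold change of the 9, -0.19, was -0.074 with normexp, -0.0964 with normexp and position, -0.29 with median centring, -0.036 with slide as a fixed block and -0.058 within position 2, and lay between -0.25 and -0.14 with 1 array left out. Median centring moved the median of everything tested to -0.15, against -0.042. The other settings for array position were added after seeing the data: there the count of the 9 genes past the threshold, 0 with group and position in the model, was 1 with normexp, quantile normalization, the robust trend or slide as a fixed block, 2 with slide as a random block and 3 with array weights, and 0 to 0 with 1 array left out. From normexp to array weights, in the order named, 5.52%, 3.61%, 6.48%, 13.1%, 13.9% and 23.3% of everything tested passed between positions.

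With slide as a fixed block, treatment rests on slide 2 alone, 1 PNP array at position 2 against 1 untreated array at position 1, so treatment and position cannot be told apart in it. The sign turned for Mmp2 (0.017) and Timp2 (0.034) in that fit, for Mmp14 (0.0021) with array weights, for the brightest Timp3 probe with normexp and position (0.18), with position as a block under the plain or robust fit (0.0020 in both) and within position 1 (0.053), for Plau within position 2 (0.024; second probe 0.023) and with slide and position (0.11), and for Plat with slide and position (-0.25). The second Timp3 probe kept its sign in all 22 other settings run on it. Among other named genes it turned for Spint1 (-0.058 with normexp, -0.10 with normexp and position, -0.28 with slide and position), Adamts9 (0.12 within position 2, 0.66 with slide and position), Ctsb (-0.051 and -0.37 in the same fits) and Cd44 (0.42 with the median of its probes). The position difference turned for Timp1 (-0.068 with quantile normalization, -0.048 in the authors' values, and from -0.077 without untreated replicate 2 to 0.33 without PNP replicate 2), Plat (-0.028, -0.020, and from -0.0012 without PNP replicate 3 to 0.17 without PNP replicate 1) and Mmp13 (0.034 with array weights). The causes were not tested. With the replicate number as a block, 0 genes were called and the median of the 9 genes was -0.19.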
